A study of Mus musculus with 4 samples.

Results

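H3K36 methyltransferase genes are those whose enzymes add methyl groups to lysine 36 of histone H3. The 5 genes Setd2, Nsd1, Whsc1 (now named Nsd2), Whsc1l1 (now named Nsd3) and Ash1l were chosen by gene symbol, by a rule that uses no measured value but was written with earlier results of these data known, and all 5 were found among the 20299 genes of the series. Gene-level RNA signal had been measured in 4 sorted cell fractions from mouse fetal gonads, taken 15.5 days post coitum (dpc), with 1 library per fraction. The fractions were male germ cells, female germ cells, male gonadal somatic cells and female gonadal somatic cells. All came from fetuses of CF1 mothers and TgOG2 fathers, so every group carried the same transgene, in which the Oct4 (Pou5f1) promoter drives green fluorescent protein (GFP). Cells with GFP were sorted as germ cells and cells without it as somatic cells, so each somatic library mixes all the other cell types of the gonad. No group received a treatment.

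Setd2 is the main enzyme for trimethylation of this lysine, which it places on gene bodies while bound to elongating RNA polymerase II, and the NSD enzymes and Ash1l place mono- and dimethylation. Proteins with a PWWP domain read these marks, among them the DNA methyltransferases Dnmt3a and Dnmt3b. In the mouse germline, dimethylation by Nsd1 is known to be needed for DNA methylation in male germ cells before birth, and trimethylation by Setd2 for DNA methylation in growing oocytes.

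The 5 enzymes share a catalytic SET domain, and a stretch of 90 coding bases around its conserved motif is shown because it is the part these enzymes have in common and lets a reader judge how far apart the genes are at the level of reads. The stretch lies in exon 7 and exon 8 of Setd2 (chr9:110562943-110563014 and chr9:110564571-110564588), exon 20 of Nsd1 (chr13:55302851-55302940), exon 18 of Whsc1 (chr5:33891518-33891607), exon 20 of Whsc1l1 (chr8:25709075-25709164), and exon 11 and exon 12 of Ash1l (chr3:89043570-89043643 and chr3:89051989-89052004). Each was read from GENCODE transcripts of the GRCm38 build, on the + strand, and is written 5′ to 3′. Capitals mark the 48 bases that are the same in all 5 genes.
Setd2: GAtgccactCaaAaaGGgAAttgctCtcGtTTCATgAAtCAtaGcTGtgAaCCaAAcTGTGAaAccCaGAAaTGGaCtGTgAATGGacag
Nsd1: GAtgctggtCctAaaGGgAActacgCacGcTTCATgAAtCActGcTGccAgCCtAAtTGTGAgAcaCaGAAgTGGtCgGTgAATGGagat
Whsc1: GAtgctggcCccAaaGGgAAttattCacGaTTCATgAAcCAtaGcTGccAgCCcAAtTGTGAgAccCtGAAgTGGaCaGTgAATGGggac
Whsc1l1: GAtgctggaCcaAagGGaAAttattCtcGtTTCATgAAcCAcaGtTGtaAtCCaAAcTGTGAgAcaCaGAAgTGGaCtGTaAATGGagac
Ash1l: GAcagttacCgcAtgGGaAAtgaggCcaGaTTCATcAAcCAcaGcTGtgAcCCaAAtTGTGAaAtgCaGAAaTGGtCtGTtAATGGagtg
Identity over the stretch ran from 64.4% between Nsd1 and Ash1l to 82.2% between Nsd1 and Whsc1, and Whsc1 and Whsc1l1 were 80.0% identical. No pair shared a run of 30 identical bases anywhere in these transcripts, and none of the 5 transcripts shared a run of 100 bases, the length of 1 read, with a transcript of another gene. Only exact runs in 1 transcript of each member were checked. That of Whsc1 has 6919 bases against a listed length of 12818, so part of its counted sequence may not be covered.

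The depth estimated from the spacing of low values was 17.5 to 24.9 M fragments per library, where M stands for 1000000. Values are given as scaled signal per 1000000 (SPM), with library totals adjusted by the trimmed mean of M values (TMM), and levels are compared between genes only as SPM per kb of listed gene length. The 6 germ cell markers summed to 5309 SPM in the male and 4480 SPM in the female germ library, against 33.5 and 8.88 SPM in the male and female somatic libraries. Pou5f1, 1 of these 6, gave the promoter of the sorting transgene, so it is no separate check of the sort. It read 497 SPM in male and 34.5 SPM in female germ cells. The 5 Sertoli cell markers summed to 520 SPM in the male and 14.0 SPM in the female somatic library, and the 5 pregranulosa markers to 106 and 989 SPM, so the markers followed the labels. The 6 red blood cell markers summed to 30279 SPM in the male and 11290 SPM in the female somatic library, and the 6 stromal markers to 15533 and 5837 SPM. In bulk libraries such as these, fewer cells of a type and less RNA per cell cannot be told apart.

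All 5 genes were detected in every library, with estimates of 1058 to 22107 fragments per gene and library. Setd2 (chr9:110435100-110521137 in the mm9 build, 8371 bases of listed length) read 127 and 249.6 SPM in the germ cells of males and females, and 272 and 345 SPM in their somatic cells. Male germ cells gave the low value and female somatic cells the high one, a 2.72-fold range, and both germ libraries lay under both somatic libraries.

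Nsd1 (chr13:55311142-55419686, 12807 bases), whose loss of function causes Sotos overgrowth syndrome in people, read 766 SPM in the germ cells of males and 1065 SPM in those of females, and 894 and 883 SPM in the somatic cells of males and females. The 2 somatic libraries lay close together, between the 2 germ libraries. Its range of 1.39-fold was narrow: 3.21% of the 11934 genes with a mean of 5 SPM or more had a smaller one, and the median range over those genes was 4.01-fold.

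Whsc1 (chr5:34185760-34240615, 12818 bases), which lies in the region deleted in Wolf-Hirschhorn syndrome, read 287 SPM (males) and 525 SPM (females) in germ cells, and 267 SPM (males) and 167 SPM (females) in somatic cells. Female germ cells were high and female somatic cells low, and its range of 3.14-fold was the widest of the 5. Both germ libraries lay above both somatic libraries, by a small margin in males.

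Whsc1l1 (chr8:26712777-26830139, 11671 bases) encodes a long form with the catalytic domain and a short form without it, which a value per gene does not separate. Its germ cell levels were 50.4 SPM in males and 63.3 SPM in females, and its somatic levels 91.4 and 88.6 SPM. Both germ libraries were lower than both somatic libraries, with a range of 1.81-fold.

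Ash1l (chr3:88769733-88883297, 11297 bases), the mammalian counterpart of the trithorax group gene ash1, read 158 SPM (males) and 244 SPM (females) in germ cells, against 248 SPM (males) and 218 SPM (females) in somatic cells. Male germ cells were low and the other libraries lay close together. The values of female germ and male somatic cells had a ratio of 0.983, with an exact binomial 95% interval of 0.941 to 1.03 that covers counting error only, as do all intervals of ratios here.

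Per kb, Nsd1 was the highest of the 5 in every library, at 59.8 to 83.1 SPM per kb, and Whsc1l1 the lowest, at 4.32 to 7.83 SPM per kb. The median of the mean levels of those 11934 genes was 14.5 SPM per kb. Between them, Setd2 covered 15.1 to 41.2, Whsc1 13.1 to 41.0 and Ash1l 14.0 to 22.0 SPM per kb. These ranges overlapped across libraries. Within libraries Ash1l read under Setd2 in all 4, whereas Whsc1, on its listed length, read above both in the germ libraries and under both in the somatic libraries. The order of their means rested on gene length. Whsc1 averaged 24.3 SPM per kb of listed length, under Setd2 at 29.6, but 45.1 SPM per kb of the 6919-base transcript with its longest reading frame, above Setd2 at 29.7 on that basis.

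**Figure D1:**
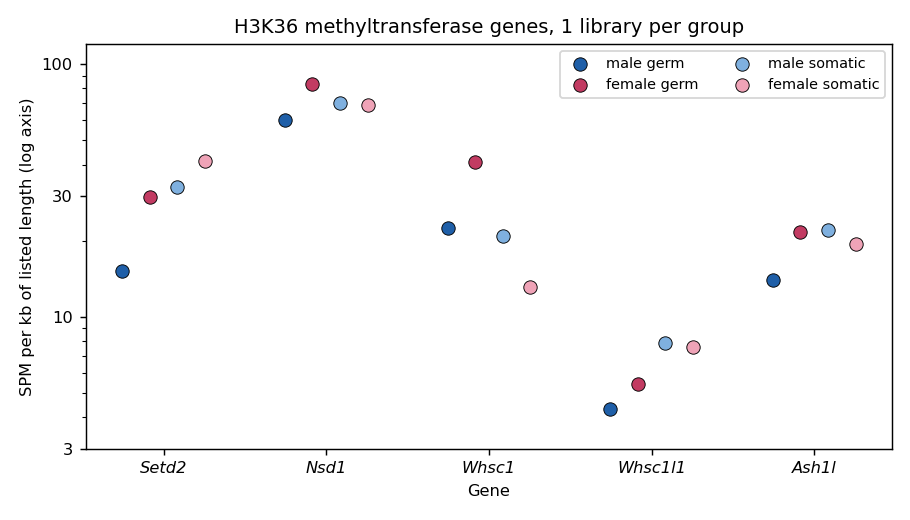
Level of each H3K36 methyltransferase gene in SPM per kb of listed length on a log axis, with 1 point per library and no error bar because each group has 1 library. Nsd1 sits at 59.8 to 83.1 and Whsc1l1 at 4.32 to 7.83 SPM per kb, with the other genes between them, and the male germ point is the lowest for every gene except Whsc1.

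The male germ library held the lowest value of 4 of the 5 genes, all except Whsc1, whose lowest value was in female somatic cells. Over the 11934 genes with a mean of 5 SPM or more, 29.7% were lowest in the male germ library. With upper-quartile scaling the count was 3 of 5, because Nsd1 was then lowest in male somatic cells.

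Between the sexes in germ cells, every one of the 5 genes was lower in males than in females. Setd2 was 1.97-fold lower (95% interval 1.88 to 2.06), Whsc1 1.83-fold lower (1.77 to 1.89) and Ash1l 1.54-fold lower (1.48 to 1.61). Nsd1 was 1.39-fold lower (1.36 to 1.42) and Whsc1l1 1.26-fold lower (1.16 to 1.36). With 1 library per group these differences have no replicate check. Over the 11766 genes at 5 SPM or more in either germ library, 51.7% were lower in males by any amount.

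None of the 5 genes reached 2-fold in that pair, whereas 26.8% of the genes at 5 SPM or more were at least 2-fold higher and 26.3% at least 2-fold lower in male germ cells. All 5 log2 ratios, from -0.98 for Setd2 to -0.33 for Whsc1l1, fell between the quartiles of those genes, -1.04 and 1.07. The direction was the same for all 5 under each of the other scalings. The sizes shrank with upper-quartile scaling, which moved the median gene by 0.28 (log2) in this pair, to -0.70 for Setd2, -0.59 for Whsc1, -0.35 for Ash1l, -0.20 for Nsd1 and -0.05 for Whsc1l1. Markers of somatic cells also differed between the germ libraries. The 6 stromal markers summed to 201 SPM in male and 59.0 SPM in female germ cells, the 6 red blood cell markers to 294 and 92.7 SPM with 2 of the 6 at or under the floor of 3 fragments in females, and the 5 fetal Leydig cell markers to 62.8 and 11.5 SPM with 3 of the 5 at or under it. The Sertoli, endothelial and leukocyte marker sums were also higher in male germ cells. Only the sum of the 5 pregranulosa markers went the other way, at 26.4 SPM in male and 30.4 SPM in female germ cells. The part of these markers in the result was not tested.

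In somatic cells the sexes were closer, and no gene reached 2-fold, against 9.61% of 11835 genes at least 2-fold higher and 8.26% at least 2-fold lower in males. Whsc1 was 1.60-fold higher in males (1.53 to 1.67) and Ash1l 1.14-fold higher (1.09 to 1.18). Setd2 was 1.27-fold lower in males (1.22 to 1.32). The intervals of the male-to-female ratio included 1 for Nsd1, at 1.01 (0.992 to 1.03), and for Whsc1l1, at 1.03 (0.966 to 1.10). The male value was the higher one for 4 of the 5 genes, against 50.8% of all genes, but Nsd1 turned to the lower side with library totals and with upper-quartile scaling, and Whsc1l1 with library totals. The log2 ratio of Whsc1, 0.68, lay above the upper quartile of all genes, 0.37, and that of Setd2, -0.34, just under the lower quartile, -0.33. The make-up of the 2 somatic fractions differed too, with the Sertoli, pregranulosa, stromal and red blood cell sums given above, and its part in these ratios was not tested.

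Within males, Setd2 was the gene that separated germ from somatic cells most, 2.15-fold lower in germ cells (2.05 to 2.24). It was the 1 gene of the 5 at least 2-fold lower, and none was at least 2-fold higher, against 32.1% and 24.4% of 12636 genes. That count was 0 under the 3 other scalings, where the log2 ratio of Setd2 was -0.98 (median of ratios), -0.92 (library totals) and -0.78 (upper quartile) in place of -1.10. Whsc1l1 was 1.81-fold lower (1.68 to 1.95), Ash1l had a ratio of 0.638 (0.611 to 0.666) and Nsd1 was 1.17-fold lower (1.14 to 1.19), the last turning to 0.09 (log2) with upper-quartile scaling. Whsc1 was near even at 1.07-fold higher (1.03 to 1.11). In this pair 4 of the 5 were lower in germ cells, against 54% of all genes.

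Within females, Whsc1 was 3.14-fold higher in germ than in somatic cells (3.02 to 3.25). It was the 1 gene at least 2-fold higher, and none was at least 2-fold lower, against 27.2% and 34% of 12245 genes. Its log2 ratio of 1.65 lay above the upper quartile of all genes, 1.10. Nsd1 was 1.21-fold higher (1.18 to 1.23) and Ash1l 1.12-fold higher (1.07 to 1.16), so 3 of the 5 were higher in germ cells, against 49.4% of all genes. Setd2 was 1.38-fold lower (1.33 to 1.43) and Whsc1l1 1.40-fold lower (1.30 to 1.51). The comparisons share libraries, so the pairs are set side by side and do not support each other.

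**Figure D2:**
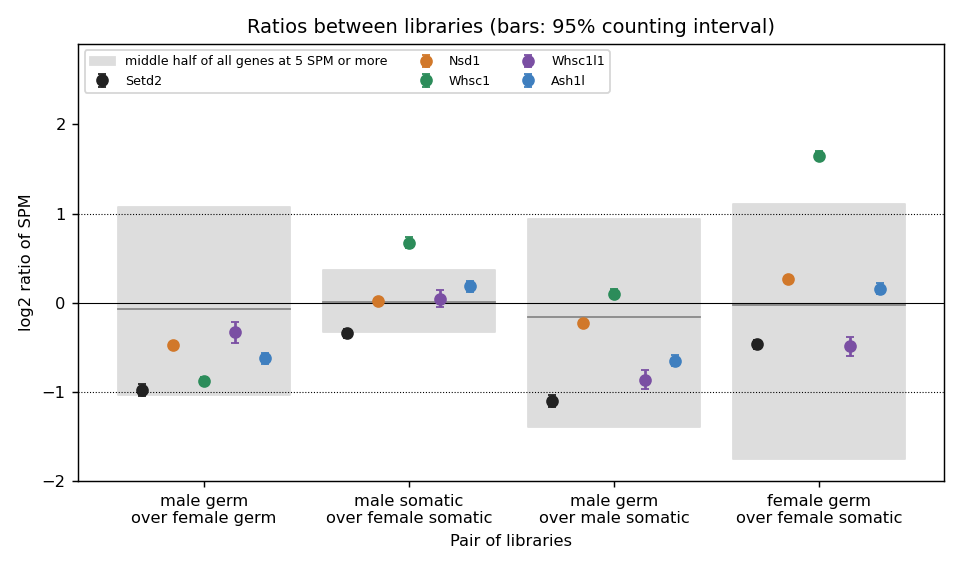
Log2 ratio of SPM of each H3K36 methyltransferase gene in 4 pairs of libraries, with 95% intervals for counting error as bars, grey boxes from the lower to the upper quartile of all genes at 5 SPM or more in the pair, and dotted lines at 2-fold. All 5 genes lie under 0 for male over female germ cells but inside the box, and Whsc1 stands above the box for female germ over female somatic cells, at 1.65.

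Relative levels within a library do not depend on the scaling between libraries, and the change of a ratio of 2 genes from library to library does not depend on gene length. Nsd1 made up 51.7% of the summed SPM per kb of the 5 genes in the germ cells of males and 46.0% in those of females, and 45.7% and 45.9% in the somatic cells of males and females. The share of Setd2 was 13.1% (males) and 16.5% (females) in germ cells, and 21.2% (males) and 27.4% (females) in somatic cells. Whsc1 ran the other way between the cell types, with 19.4% in male germ and 22.6% in female germ cells against 13.6% in male and 8.70% in female somatic cells. Whsc1l1 held at most 5.12%, and Ash1l held 11.9% to 14.4%. These shares, unlike the changes of ratios, do depend on gene length. With the transcript lengths Nsd1 held 38.4% to 44.2% and Whsc1 30.6% (males) and 35.0% (females) in germ cells, against 22.4% and 14.9% in somatic cells, and the share of Setd2 was again lowest in male germ cells, at 11.2%.

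Set against Setd2, Nsd1 was 3.96 times as high per kb in the germ cells of males and 2.79 times in those of females, but 2.15 and 1.67 times in the somatic cells of males and females. The ratio of Whsc1 to Setd2 was 1.48 (males) and 1.37 (females) in germ cells, and 0.643 (males) and 0.317 (females) in somatic cells. Whsc1 therefore read above Setd2 in both germ libraries and under it in both somatic libraries per kb of listed length. On the transcript length given above, this crossing was seen in females and not in males, since Whsc1 read 41.5 and Setd2 15.2 SPM per kb in male germ cells and 38.7 and 32.5 in male somatic cells. Ash1l stood at 0.927 and 0.724 of Setd2 in germ cells, and at 0.677 and 0.469 in somatic cells, males first.

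**Figure D3:**
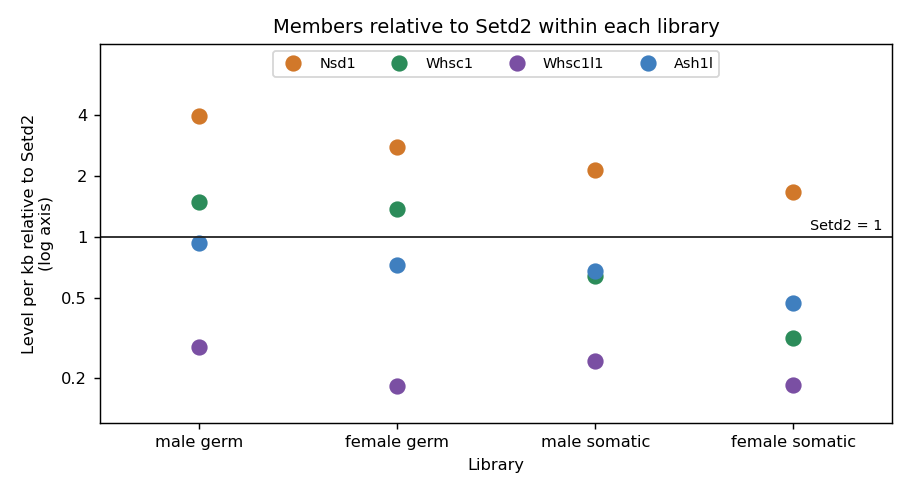
Level per kb of listed length of Nsd1, Whsc1, Whsc1l1 and Ash1l relative to Setd2 in the same library, on a log axis, with the line at 1 standing for Setd2. Nsd1 goes from 3.96 in male germ to 1.67 in female somatic cells, and Whsc1 lies above the line in both germ libraries and under it in both somatic libraries. Per kb of transcript length, Whsc1 read above Setd2 in male somatic cells too, at 38.7 against 32.5 SPM per kb.

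Germ cells were tested against somatic cells with limma, with 1 library of each sex on either side (n = 2 against 2). The labels do not say whether separate animals gave each library. The 2 libraries on each side differ in sex, so the error of this fit holds the sex difference and not a spread of replicates. It had 2 residual degrees of freedom, and limma added 3.15 from the spread of all genes tested. The p-values therefore reflect only how these libraries differ among themselves. None of the 5 genes passed at an adjusted p of 0.05, and none had an unadjusted p under 0.05, whereas 8.06% of 14148 genes tested passed and 31.4% were under 0.05 unadjusted. With sex as a term, which compares germ and somatic libraries within each sex, 3049 of the 14148 genes passed and 0 of the 5 did. Without that term, Whsc1 had the largest difference, 0.87 ± 0.49 higher in germ cells (log2 of SPM + 0.5 ± SE, limma adjusted p = 0.288). Setd2 was at -0.78 ± 0.48 (limma adjusted p = 0.322) and Whsc1l1 at -0.67 ± 0.40 (limma adjusted p = 0.320). Ash1l, at -0.24 ± 0.40 (limma adjusted p = 0.723), and Nsd1, at 0.02 ± 0.40 (limma adjusted p = 0.977), had differences smaller than their errors. The nearest to the threshold in any alternative were Setd2 without the female germ library, at -1.27 (limma adjusted p = 0.0572), and Whsc1 without the male germ library, at 1.31 (limma adjusted p = 0.0721).

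By order alone, Setd2 and Whsc1l1 had both germ libraries under both somatic libraries, as did 33.8% of the 14148 genes, and Whsc1 had both above, as did 28.5%. Nsd1 and Ash1l overlapped between the cell types.

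A difference between the sexes common to germ and somatic cells was tested with cell type as a term. This fit had 1 residual degree of freedom, and limma added 25.7 from all genes tested, so its error came mostly from other genes. None of the 5 genes passed, and none had an unadjusted p under 0.05, against 0.134% of genes passing and 6.47% under 0.05 unadjusted. Setd2 was at -0.66 ± 0.60 for male minus female (limma adjusted p = 0.960), and the other 4 were between -0.23 and -0.10, with limma adjusted p of 0.994 or above. Setd2 was also the only member whose sex difference had the same direction in both cell types, -0.98 in germ and -0.34 in somatic cells (log2). With library totals Nsd1 and Whsc1l1 also had 1 direction, as did Nsd1 with upper-quartile scaling. The share of all genes with 1 direction was not computed, so this is not read as a trait of Setd2.

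Genes of the same pathway were taken from 4 lists: other enzymes reported to methylate this lysine, members of demethylase families reported to act on it, proteins that read it, and partners of transcription elongation. No gene of any list passed the germ against somatic test without sex as a term, or the shared sex test. Of all 14148 genes tested, 8.06% and 0.134% passed these. The lowest adjusted p in the first was that of Setd3 (1.56 ± 0.38, limma adjusted p = 0.0682), which is best known as a methyltransferase of actin. Fitted differences for germ minus somatic ran from 3.88 for Prdm9 to -0.86 for Smyd2, from 1.72 for Kdm4d to -1.92 for Kdm4a, from 1.16 for Hdgfrp2 to -1.65 for Dnmt3a, and from 1.41 for Supt16h to -0.45 for Hnrnpl, in the order of the lists. Within males, the log2 extremes of germ over somatic cells were 1.54 (Setd3) and -0.54 (Smyd2), 0.78 (Kdm2b) and -1.22 (Kdm4b), 1.34 (Glyr1) and -2.90 (Zmynd11), and 1.55 (Supt5h) and -0.64 (Hnrnpl). Within females they were 6.61 (Prdm9) and -1.18 (Smyd2), 3.76 (Kdm4d) and -3.07 (Kdm4a), 2.57 (Hdgfrp2) and -3.35 (Dnmt3a), and 2.08 (Paf1) and -0.81 (Supt6h). For the shared sex difference they were 0.85 (Setmar) and -3.30 (Prdm9), and 0.76 (Kdm4a) and -2.38 (Kdm4d). Then came 1.59 (Dnmt3a) and -1.40 (Hdgfrp2), and 1.06 (Supt6h) and -0.83 (Polr2a). These values average the germ and somatic pairs, so they need not be shared by both. Setmar, Prdm9 and Kdm4d had the same direction in both. Kdm4a, Dnmt3a and Supt6h were higher in males among germ cells (log2 ratios 1.92, 3.31 and 2.20) but lower among somatic cells (-0.39, -0.12 and -0.08). Hdgfrp2 and Polr2a went the other way, at -2.82 and -1.79 in germ cells against 0.01 and 0.12 in somatic cells.

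In germ cells, the median log2 ratio of male over female was -0.62 over the 5 H3K36 methyltransferase genes and -0.07 over all genes. The other reported methyltransferases had 1 of 5 at least 2-fold higher and 1 at least 2-fold lower, against 26.8% and 26.3% of all genes, with a median of 0.16. Setmar read 21.1 SPM in male and 7.18 SPM in female germ cells. Prdm9, the methyltransferase that sets the sites of meiotic recombination, read 4.81 SPM in male and 346 SPM in female germ cells, 72.0-fold lower in males (60.5 to 86.5), and 1.89 and 3.05 SPM in the somatic cells of the sexes. The other 3 genes of that list lay within 2-fold.

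Among the demethylases 1 of 8 was at least 2-fold higher in male germ cells and 3 were at least 2-fold lower, with a median of -0.63. The shares of all genes were 26.8% and 26.3%. Kdm4a, which removes tri- and dimethylation from this lysine and from lysine 9, read 124 SPM in male and 32.7 SPM in female germ cells, 3.79-fold higher (3.46 to 4.16). Kdm4d, a relative that acts on lysine 9 and not on lysine 36, read 1.38 and 40.0 SPM, a male-to-female ratio of 0.0345 (0.0242 to 0.0483). Without it the counts were 1 and 2 of 7, with a median of -0.43, and the lowest was Kdm4b, 2.36-fold lower in males (2.18 to 2.56). For all 8 genes the counts were 2 and 2 with library totals, and 2 and 1 with upper-quartile scaling.

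Among the readers 3 of 15 were at least 2-fold higher and 5 at least 2-fold lower in male germ cells, against the 26.8% and 26.3% of all genes given above, with a median of 0.21. The higher count was 4 with library totals and 5 with upper-quartile scaling, where the median was 0.49, and the lower count was 5 in both. Dnmt3a read 516 SPM in male and 52.2 SPM in female germ cells, 9.89-fold higher, and Dnmt3b 35.7 and 11.8 SPM, 3.04-fold higher. Zmynd11, a reader of trimethylated lysine 36 on the histone variant H3.3, read 15.7 and 115 SPM, 7.33-fold lower in males. In the same pair of libraries Nsd1, whose mark Dnmt3a reads, was 1.39-fold lower in males.

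Among the elongation partners 2 of 13 were at least 2-fold higher and 3 at least 2-fold lower in male germ cells, against 26.8% and 26.3% of all genes. Their median of -0.11 turned to 0.05 with library totals and 0.17 with upper-quartile scaling. Supt6h, a histone chaperone that travels with the polymerase, read 599 SPM in male and 130.1 SPM in female germ cells. Polr2a, the largest subunit of RNA polymerase II, to which Setd2 binds, read 151 and 523 SPM, 3.47-fold lower in males (3.34 to 3.60), where Setd2 was 1.97-fold lower.

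In somatic cells few genes of the same lists passed the 2-fold rule between the sexes. Of all genes, 9.61% were at least 2-fold higher and 8.26% at least 2-fold lower in males. Of the genes at 5 SPM or more, 0 of 4 other methyltransferases, 0 of 7 demethylases and 0 of 13 elongation partners reached 2-fold, and 1 of 15 readers did, Phf19, at 13.2 SPM in males and 6.41 SPM in females, and none did with library totals. The extremes of the other lists were Setd5 and Smyd2, Jmjd5 and 2410016O06Rik, and Leo1 and Ctr9, with log2 differences from 0.48 for Leo1 to -0.64 for 2410016O06Rik, and the lowest reader was Phf1 at -0.41. Dnmt3a, at 494 SPM in males and 538 SPM in females, and Dnmt3b, at 17.4 and 23.3 SPM, were both within 2-fold.

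**Figure D4:**
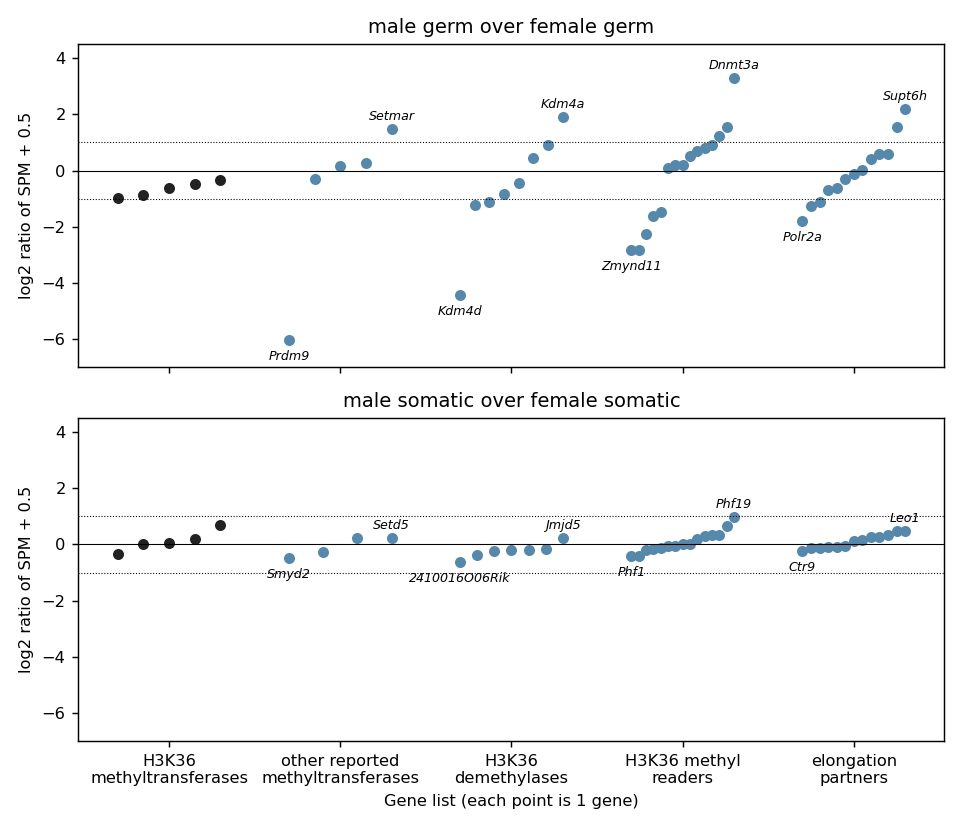
Log2 ratio of SPM + 0.5, male over female, in germ cells (upper panel) and somatic cells (lower panel), with 1 point per gene at 5 SPM or more, the H3K36 methyltransferase genes in black, the other lists in blue with their highest and lowest genes named, and dotted lines at 2-fold. The 5 black points lie between -0.98 and -0.33 in germ cells, whereas the other lists reach from Prdm9 at -6.03 to Dnmt3a at 3.29 in that panel.

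The 5 genes differed in how alike their patterns over the 4 libraries were, measured as the Euclidean distance of centred log2 values, where 0 means the same pattern. Nsd1 and Ash1l were the nearest pair at 0.31, and 2.09% of genes were nearer to Nsd1 and 1.74% nearer to Ash1l. The distance is not scaled by the size of the changes, so genes with narrow ranges lie close whatever their order. These 2 genes had the narrowest ranges of the 5, 1.39-fold and 1.57-fold. The farthest pair was Setd2 and Whsc1 at 1.81, with 46.7% of genes nearer to Setd2 than Whsc1 was. Among all genes with a mean of 5 SPM or more, the nearest to Setd2 were Angpt2 (0.02), Idua (0.09) and Pak2 (0.09), and the nearest to Nsd1 were Tmem168 (0.05), Mbd3 (0.05) and Rmnd5b (0.06). Whsc1 had Arid5a (0.12), Rpl17 (0.12) and Ctu2 (0.13) as its nearest genes. Phf6 (0.02), Gli3 (0.05) and Cast (0.08) were nearest to Whsc1l1, and Tgds (0.06), 1110004F10Rik (0.06) and Crebzf (0.07) to Ash1l. Each distance rests on 4 values and is a description.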

How the data were processed

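RNA was measured in 4 libraries, 1 per sex and cell type, from ribosomal-RNA-depleted, strand-specific, paired-end sequencing per the labels' protocols. CASAVA 1.9, TopHat 1.2.0, edgeR and mm9 are listed without role or order, per the submitters' processing notes. The counting program, its annotation and its use of strand were not given in the sources used here.

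Deposited values are a gene-level signal, headed counts per the file headers, but low values cluster at a spacing of 4.105 to 6.115, so each library was taken to have been multiplied by its own factor and rounded, and no count model was used. The spacing was taken as 1 fragment, an assumption that 43.1% to 54.3% of low values met, against 15% to 23.3% of the whole numbers up to 60. Fragment numbers, intervals and the floor of 3 fragments (0.113 to 0.181 SPM) are estimates that rest on it. Of 20373 listed genes, 74 repeats were removed.

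Totals were adjusted by TMM (factors 0.945 to 1.07). Genes that reached 1 SPM in 2 or more libraries were fitted on log2(SPM + 0.5) with limma 3.58.1 (R 4.3.3, eBayes with trend, Benjamini-Hochberg over all genes), after the step was run on simulated data. The simulated libraries held no sex difference, so they do not show how the fit behaves with the sex difference of these data. Differences on the log2(SPM + 0.5) scale understate those of low genes. Pairs of single libraries were compared by ratio, with a size rule of 2-fold and 5 SPM in the higher library. The alternatives were other scalings, pseudocounts of 0.1 and 2, other filters, sex as a term and leaving out each library. The length of the GENCODE transcript with the longest reading frame, the list counts under other scalings and the demethylase list without Kdm4d were added after seeing the data. The gene lists, like the 5 genes, were chosen with earlier results of these data known. Named genes were the 5 members, the highest and lowest of each list in each comparison, Dnmt3a and Dnmt3b, list genes passing the germ against somatic test (none did, and Setd3 was named after its value was seen), genes overlapping a member, and the 3 nearest in pattern.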

Additional observations from a re-analysis of the deposited data

Results flagged for a closer look

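For 4 of the 5 H3K36 methyltransferase genes the difference between the sexes had opposite directions in germ and somatic cells, lower in males among germ cells and higher in males among somatic cells. Taken apart, 51.7% of all genes were lower in male germ cells and 50.8% higher in male somatic cells. The share of all genes with both directions was not computed, so the count is not read as a trait of these genes. The germ cell difference minus the somatic one was -1.55 (log2) for Whsc1, -0.81 for Ash1l, -0.49 for Nsd1 and -0.37 for Whsc1l1. With 1 library per group these contrasts were not tested. The somatic interval included no difference for Nsd1 and Whsc1l1, and their somatic direction turned with library totals (and with upper-quartile scaling for Nsd1), so for them the opposition rests on the scaling. For Whsc1 and Ash1l both directions held under all 4 scalings. With library totals, however, the somatic difference of Ash1l shrank from 0.18 to 0.05 (log2), near no difference, whereas that of Whsc1 was 0.55. Germ cell and somatic marker sums also differed between the sexes, and their part in these differences was not tested.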

How the results depend on the processing

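No member passed the germ against somatic test or the shared sex test in limma under any alternative run, 11 and 6 in number. The number of all genes passing germ against somatic, 1140, was 0 with no filter on low values (4625 at an unadjusted p under 0.05) and 3049 with sex as a term, and from 349 to 4262 when 1 library was left out. Without male somatic it was 349, without female somatic 399, without female germ 2369 and without male germ 4262. In these fits a lone library is assumed to vary like the other group. Leaving out 1 library moved Nsd1 between -0.21 (without female germ) and 0.26, and Ash1l between -0.55 and 0.067 (without male germ), which turned their direction. The 19 genes with a shared sex difference became 7 with median-of-ratios scaling, 0 with library totals (625 at an unadjusted p under 0.05 in limma), 126 with a pseudocount of 0.1, 9 with no filter and 36 with a filter of 5 SPM. The 1 member at least 2-fold lower in male germ than male somatic cells, Setd2, became 0 with median-of-ratios scaling, with library totals and with upper-quartile scaling. At a minimum of 20 SPM, the 3148 genes at least 2-fold higher in male than female germ cells became 1844, and the 978 at least 2-fold lower in male than female somatic cells became 567. With upper-quartile scaling the 3148 higher and 3094 lower in male germ cells became 3894 and 2411, and the 3078 higher and 4057 lower than in male somatic cells became 3982 and 3345. With library totals the 1137 higher and 978 lower between the somatic libraries became 938 and 1192. The fit with sex as a term is the one that sets germ against somatic libraries within each sex. The labels carry no replicate numbers and do not say whether both fractions of a sex came from the same animals. By the estimated fragments, at least 1058 for each member in each library, depth was not what limited the members. These estimates rest on the assumed spacing of low values. The limit that remains is 1 library per group.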

Other observations

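The genes listed nearest to the members differed from them in some cases and not in others. Whsc2, 213 bases from Whsc1 in the listed coordinates, read 97.7 SPM in male germ, 26.7 SPM in female germ, 37.2 SPM in male somatic and 26.2 SPM in female somatic cells, so between the 2 germ libraries it was higher in males, where Whsc1 was lower. Nradd, 2501 bases from Setd2, read 55.8, 4.76, 36.4 and 53.1 SPM in the same order, and was low in female germ cells, where Setd2 was not. Rab24, 897 bases from Nsd1, read 35.1, 94.5, 50.5 and 58.6 SPM, with the lowest and highest values in the same libraries as Nsd1. Ppapdc1b lay 380 bases from Whsc1l1 and Rusc1 4603 bases from Ash1l. Both neighbours were lower in the 2 germ libraries than in the 2 somatic ones, as were Whsc1l1 and 33.8% of the 14148 genes tested. One listed span, that of Cdkn2d, covered 102.7 Mb of chromosome 9 and so overlapped Setd2, although its listed length was 2544 bases. These neighbours were chosen by position, and no test was run on them.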
